A study of Mus musculus with 6 samples.

Results

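The genes described here encode the chains of MHC class II molecules and the proteins that load peptide onto them. They are the rows of the 6 library files named H2-Aa, H2-Ab1, H2-Eb1, H2-Eb2, H2-DMa, H2-DMb1, H2-DMb2, H2-Oa, H2-Ob and Cd74, so 10 genes of 55298 in the files. All 10 were found, and all were above 0 in at least 1 library, as were 36443 genes in all. The RNA came from cancer-associated fibroblasts of orthotopic lung tumours in wild-type (labelled wt) C57BL/6 mice over 8 weeks old. Antigen-presenting fibroblasts (apCAFs 1, 2 and 3) were sorted as MHCII+ and the comparison cells (nonapCAFs 4, 5 and 6) as MHCII-. Both populations otherwise passed the same gate, which took cells high in FSC-A (forward scatter) that carried PDGFRa and a marker the labels spell PDPL and lacked mCherry, EPCAM, CD31 and CD45. Tumours were pooled before sorting in 3 independent experiments, so no library stands for a single animal, and the labels do not say which apCAFs and nonapCAFs libraries share an experiment.

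A class II molecule pairs an alpha and a beta chain at the cell surface and shows peptides from endosomes to CD4+ T cells. While the chains are made, the invariant chain Cd74 fills their groove and guides them to endosomes. There it is cut down to a short fragment that H2-M, a dimer of H2-DMa with an H2-DMb chain, exchanges for peptide. H2-O, made of H2-Oa and H2-Ob, binds H2-M and restrains it, and is best known from B cells and thymic epithelium. Dendritic cells, macrophages and B cells carry class II at all times, and many other cells acquire it under interferon-gamma through the transactivator Ciita. Alveolar type II cells of the mouse lung also carry it.

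Values below are the authors' normalized counts, which are scaled between libraries and given as whole numbers, so sequencing depth is unknown. Their totals ran from 77960347 to 93330791 per library. The lowest values were unevenly filled: between 1836 and 2069 genes read 2 in 5 libraries, but 0 in apCAFs 3, where 1300 read 3. Group differences are log2 fold changes on the log2(value + 1) scale with the moderated standard error (SE) from limma, and p-values are limma's, Benjamini-Hochberg adjusted over the 36443 genes. Class II protein was the sort criterion, so the classical chain genes serve as a check of the labels, and no member's difference is independent of the gate. In RNA from a sorted population, fewer expressing cells and less RNA per cell cannot be told apart.

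The genes for the classical chains were high in every apCAFs library and low, but above 0, in every nonapCAFs library. H2-Aa encodes the alpha chain of I-A, the only classical class II molecule that C57BL/6 mice assemble, and lies on chromosome 17 at 34282744 to 34287823 (mm10, as in the files). It read 11556, 12693 and 22115 in apCAFs 1, 2 and 3 and 207, 252 and 187 in nonapCAFs 4, 5 and 6. H2-Ab1 (chromosome 17, 34257689 to 34269419), which encodes the I-A beta chain, read 20116, 20316 and 40443 against 517, 515 and 386. H2-Eb1 (chromosome 17, 34305867 to 34316674), for the I-E beta chain, read 15143, 16335 and 28324 against 215, 303 and 220. For each chain the groups did not overlap and apCAFs 3 was the highest library. The difference was 6.11 (SE 0.30, adjusted p = 0.00643) for H2-Aa, 5.76 (SE 0.34, adjusted p = 0.00701) for H2-Ab1 and 6.29 (SE 0.31, adjusted p = 0.00643) for H2-Eb1.

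The alpha partner of H2-Eb1 was absent from these values. The files list it as H2-Ea-ps, a polymorphic pseudogene, at 0 in all 6 libraries; C57BL/6 mice carry a disabled copy of this gene and place no I-E at the cell surface. H2-Eb1 transcript was thus within the range of the I-A chains in a strain with no listed transcript for its partner. H2-Eb2, a nearby beta-like chain gene of little-known function (chromosome 17, 34325665 to 34341412), was faint. It read 19, 9 and 42 in apCAFs 1, 2 and 3 and was listed at 0 in every nonapCAFs library, so no fold is given. It passed in limma (adjusted p = 0.0214), but not without apCAFs 1 (adjusted p = 0.0732), nonapCAFs 4 (0.0836), nonapCAFs 5 (0.0806) or nonapCAFs 6 (0.0659), and not with a pseudocount of 10 (0.0524) or when genes at 0 throughout were also tested (0.0693).

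Cd74, the invariant chain, was the most abundant member in apCAFs and showed the largest log2 difference among members; in nonapCAFs, H2-DMa read higher. It lies on chromosome 18 at 60803848 to 60812652 and read 57814, 59290 and 102314 in apCAFs 1, 2 and 3 against 928, 1108 and 604 in nonapCAFs 4, 5 and 6 (log2 6.37, SE 0.34, adjusted p = 0.0069). The groups did not overlap, and apCAFs 3 again stood above the other two. Cd74 made up 49.0% to 49.8% of the summed values of the 10 members in apCAFs and 18.0% to 23.8% in nonapCAFs. A microRNA gene within it on the same strand, Mir5107, shares 12 exon bases with it and read 6271, 6715 and 10686 against 101, 140 and 89. Reads of the pair cannot be told apart there.

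**Figure D1:**
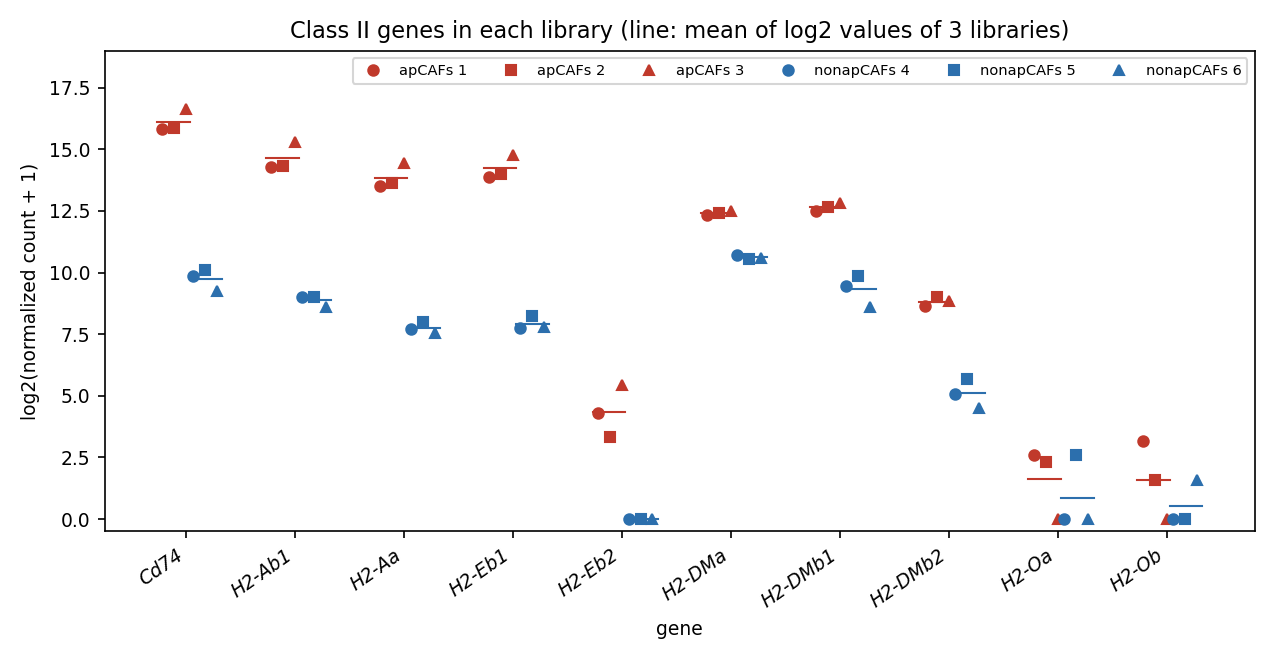
Normalized counts of the 10 class II genes as log2(value + 1), one point per library, with apCAFs in red and nonapCAFs in blue and a line at each group's mean. The groups are separate for 8 genes, by about 6 log2 units for Cd74 and the 3 classical chains and by 1.81 for H2-DMa, while H2-Oa and H2-Ob stay at or below 8 in every library.

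The peptide editor genes also differed, by less. In every nonapCAFs library H2-DMa and H2-DMb1 read above each classical chain, and H2-DMb2 read below them. In nonapCAFs 6 the margin of H2-DMb1 was small, at 390 against 386 for H2-Ab1. H2-DMa (chromosome 17, 34119541 to 34139101), the alpha chain of H2-M, read 5215, 5409 and 5822 in apCAFs 1, 2 and 3 and 1662, 1489 and 1549 in nonapCAFs 4, 5 and 6 (log2 1.81, SE 0.13, adjusted p = 0.00981). H2-DMb1 (34153072 to 34160230), a beta chain of H2-M, read 5765, 6414 and 7319 against 702, 940 and 390 (log2 3.34, SE 0.35, adjusted p = 0.0173). H2-DMb2 (34143307 to 34151555), the second beta chain gene, read 395, 510 and 454 against 33, 51 and 22 (log2 3.71, SE 0.33, adjusted p = 0.0137). In all 3 the groups did not overlap. The nonapCAFs mean was 28.6% of the apCAFs mean for H2-DMa, 10.4% for H2-DMb1 and 7.8% for H2-DMb2, against 1.2% to 1.75% for Cd74 and the classical chains.

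Both DMb calls were lost in some alternative fits. H2-DMb1 did not pass without apCAFs 1 (adjusted p = 0.0569), apCAFs 2 (0.0614) or nonapCAFs 4 (0.064), or when genes at 0 throughout were also tested (0.0538), and H2-DMb2 did not pass without apCAFs 2 (0.0525); their log2 differences stayed between 2.99 and 3.63 and between 3.42 and 4.01 when any 1 library was left out. The values of these genes also carry counting limits. Of all stretches of 50 bases in the annotated transcripts of H2-DMb1, 22.7% occur in H2-DMb2, so reads could be split between the pair. H2-DMa shares 360 of its 3448 exon bases with Brd2, a chromatin reader gene on the opposite strand that read 30135 to 33479 in all 6 libraries. The strand setting of the counting is not given in the sources used here, and the part of Brd2 reads in the H2-DMa values was not tested.

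The genes for H2-O were at the edge of detection in both groups. H2-Oa (chromosome 17, 34092340 to 34095234) read 5, 4 and 0 in apCAFs 1, 2 and 3 and 0, 5 and 0 in nonapCAFs 4, 5 and 6 (adjusted p = 0.661). H2-Ob (34238903 to 34254414) read 8, 2 and 0 against 0, 0 and 2 (adjusted p = 0.518). The groups overlapped for both, and in apCAFs 3, which was highest for Cd74 and every classical chain, both were listed at 0. A difference between groups was not detectable at these values. In the same apCAFs libraries H2-DMa read at least 5215 and H2-DMb1 at least 5765.

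In all, 8 of the 10 members were called higher in apCAFs and none lower, and the same number had groups that did not overlap. Over all 36443 tested genes limma called 3.91% higher and 0.486% lower (4.4% in either direction), and 17.1% had all 3 apCAFs libraries above all 3 nonapCAFs libraries. The median log2 fold change of the members was 4.04, or 3.71 without H2-Eb2, against -0.04 over all tested genes (limma called 5.87% higher when counted among genes with a mean of 100 or more); since the gate was set on the product of these genes, this comparison is a description. The call rests on treating the libraries as separate replicates: when the pair apCAFs 1 and 2, which are close, and likewise the pair nonapCAFs 4 and 5 each became a single averaged library, limma called 0 members, and it called 0 with an experiment term under each of the 6 possible pairings. Each of those fits also called 0 of all 36443 genes. Before adjustment, each left 8 members below 0.05. Over all genes, 4700 were below 0.05 before adjustment with the pairs averaged, and 5316 to 6680 with an experiment term. The authors' deposited table gives a DESeq2 adjusted p for 7 members, each higher in apCAFs, from 1.3e-107 for H2-Eb1 to 2.84e-24 for H2-DMb1, beside 20.6% of its 19255 genes with such a p called higher.

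Per length, Cd74 stood well above the chains it accompanies. Divided by merged exon length, its mean level was 43561 ± 15055 per kilobase in apCAFs (SD, n = 3), and its rank among all genes was 185, 182 and 89 in apCAFs 1, 2 and 3. H2-Ab1 followed with 10498 ± 4548 per kilobase and H2-Eb1 with 10254 ± 3750, which did not differ beyond their spread. H2-Aa had 4069 ± 1526 and H2-DMb1 3866 ± 464, whose ranges also overlapped. H2-DMa had 1590 ± 90, H2-DMb2 259 ± 33 and H2-Eb2 6.88 ± 4.99 per kilobase. H2-Aa's place depends on the length used, since its merged exons span 3798 bases and its longest coding transcript 1128; per kilobase of the latter it reached 13701, above the 11944 of H2-Eb1 and below the 22243 of H2-Ab1.

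In nonapCAFs the order of levels per length was different. Cd74 had 524 ± 152 per kilobase, H2-DMa 454 ± 25 and H2-DMb1 403 ± 164 (SD, n = 3), with overlapping ranges, though Cd74 ranked above H2-DMb1 within each library. H2-Ab1 (184 ± 29), H2-Eb1 (127 ± 25) and H2-Aa (56.7 ± 8.8) came below these 3. This order too depends on the length used. Per kilobase of the longest coding transcript, H2-DMa (781) stood above Cd74 (624) and H2-Aa (191) above H2-Eb1 (147). The 3 H2-M genes made up 53.2% to 58.4% of the members' summed values in nonapCAFs and 6.57% to 10.2% in apCAFs. The classical chains made up 22.0% to 23.6% and 40.3% to 43.9%. The part of Brd2 reads in the H2-DMa values behind these levels and shares was not tested.

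Ratios within a library are free of the scaling between libraries, and 13 were computed from the members. In the 10 ratios without a library at 0, the groups did not overlap in any, and each gave an exact two-sided permutation p of 0.1 (0.118 adjusted over the 13), the smallest that 3 libraries against 3 can give. These ratios share genes and are not independent of each other. The partner chains of I-A kept close proportions: H2-Ab1 over H2-Aa was 1.74, 1.60 and 1.83 in apCAFs 1, 2 and 3 and 2.50, 2.04 and 2.06 in nonapCAFs 4, 5 and 6. H2-Eb1 over H2-Aa was 1.31, 1.29 and 1.28 against 1.04, 1.20 and 1.18, and Cd74 over H2-Aa was 5.003, 4.67 and 4.63 against 4.48, 4.397 and 3.23. Across a 69.0-fold difference in H2-Aa itself, these 3 ratios thus differed between groups by 0.787-fold, 1.14-fold and 1.20-fold.

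The H2-M genes did not keep such proportions. H2-DMb1 over H2-DMa was 1.11, 1.19 and 1.26 in apCAFs and 0.422, 0.631 and 0.252 in nonapCAFs, a 2.90-fold difference in the ratio. With both DMb genes summed, which sets aside how reads are split between them, it was 2.95-fold. H2-DMb2 over H2-DMb1 moved less, from 0.0470, 0.0543 and 0.0564 in nonapCAFs to 0.0685, 0.0795 and 0.0620 in apCAFs. With a pseudocount of 10 its log2 difference fell from 0.37 to 0.071 and its exact permutation p rose from 0.1 to 0.7. H2-DMa over H2-Aa showed the widest gap, at 0.451, 0.426 and 0.263 in apCAFs against 8.03, 5.91 and 8.28 in nonapCAFs, 19.7-fold lower in apCAFs. Any Brd2 reads counted at the exon bases it shares with H2-DMa stay in every ratio with H2-DMa. Their part in these gaps was not tested. The remaining 3 ratios, with H2-Eb2, H2-Oa or H2-Ob, rest on values at 0 and their size is set by the pseudocount.

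**Figure D2:**
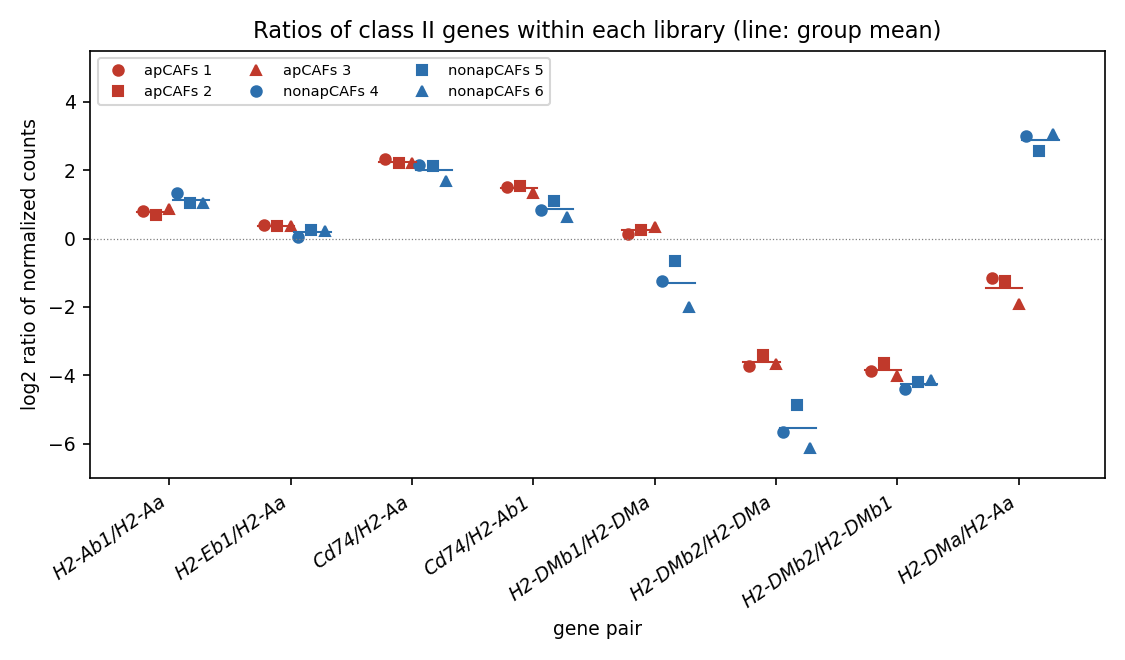
Log2 ratios of normalized counts of 8 gene pairs within each library, apCAFs in red and nonapCAFs in blue, with a line at each group's mean and a dotted line at equal values. The ratios of H2-Ab1, H2-Eb1 and Cd74 to H2-Aa lie close in both groups, while H2-DMb1 over H2-DMa and H2-DMa over H2-Aa are far apart.

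Among the apCAFs libraries the members did not vary alike. Set against the mean of apCAFs 1 and 2, apCAFs 3 was 1.82 times as high for H2-Aa, 2.001 for H2-Ab1, 1.80 for H2-Eb1 and 1.75 for Cd74. For H2-DMa it was 1.10, for H2-DMb1 1.20 and for H2-DMb2 1.003. Ciita read 2177, 2137 and 3409 in the same libraries, and the sort marker gene Pdgfra 40769, 43116 and 89023. In nonapCAFs, library 6 was 0.475 and 0.524 times the mean of libraries 4 and 5 for H2-DMb1 and H2-DMb2, and 0.593 for Cd74, against 0.983 for H2-DMa. A single library on one side allows no test of these differences.

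The promoters of class II genes are known for a conserved module in which an X box is bound by the RFX complex and CREB, a Y box by NF-Y, and Ciita is recruited by the assembled factors. RefSeq start sites (GRCm38.p6) were at hand for 8 members, and the 250 bases before each were searched on both strands. The Y box core ATTGG occurred before at least 1 start site of all 8, but 33.8% of 32536 gene promoter windows of that length hold it. The X box was searched as AACNN followed directly by ATGNTG, a pattern drawn up after these promoters had been read, so its fit to them is by construction; it is held by 0.467% of windows. It lay 28 to 31 bases before a Y box core, start to start, in H2-DMb1, H2-DMb2, H2-Ob, H2-Eb1 and H2-Eb2. Both motifs on the same strand, 20 to 45 bases apart, occurred in 6 windows of 32536, those of these 5 members and of Fgd4.

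The stretch from 150 to 31 bases before the start site is shown for 5 members. It sets H2-Aa and H2-Eb1, the classical chains with the widest differences, beside H2-DMb2, H2-Eb2 and H2-Ob. H2-Eb2 and H2-Ob match the same X box pattern and Y box core as H2-Eb1 and H2-DMb2, at low transcript levels. Capitals mark the X box pattern, ATTGG or its extended form CTGATTGG (CCAAT where it lies on the other strand), and TGACGTCA, the cyclic AMP response element, which 1.56% of all windows hold. H2-Aa is on the minus strand and the others on the plus strand of chromosome 17, and each sequence reads 5′ to 3′ along its gene.
H2-Aa (chr17:34287854-34287973): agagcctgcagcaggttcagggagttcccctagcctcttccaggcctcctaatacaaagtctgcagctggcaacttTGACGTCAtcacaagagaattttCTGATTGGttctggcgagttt
H2-Eb1 (chr17:34305717-34305836): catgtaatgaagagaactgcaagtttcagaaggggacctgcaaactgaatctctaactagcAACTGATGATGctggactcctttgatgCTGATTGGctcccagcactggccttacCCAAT
H2-DMb2 (chr17:34145099-34145218): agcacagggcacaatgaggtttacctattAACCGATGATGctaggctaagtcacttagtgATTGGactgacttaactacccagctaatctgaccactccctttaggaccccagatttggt
H2-Eb2 (chr17:34325525-34325644): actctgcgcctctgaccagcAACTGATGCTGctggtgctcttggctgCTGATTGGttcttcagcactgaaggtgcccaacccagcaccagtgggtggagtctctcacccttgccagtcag
H2-Ob (chr17:34238755-34238874): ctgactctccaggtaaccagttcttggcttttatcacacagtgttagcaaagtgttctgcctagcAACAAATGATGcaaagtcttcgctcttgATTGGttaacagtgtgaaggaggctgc
H2-Aa lacks the X box pattern as searched and holds TGACGTCA 26 bases before its Y box core, start to start. H2-Eb2 and H2-Ob hold both motifs and read at most 42 and 8 in any library. H2-DMa, with 2 RefSeq start sites, held only a Y box core 198 bases before the second of them. A match of letters is no evidence of binding, and a missing match says only that these letters are not in the window.

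The 9 H2 members lie within 249.1 kb of chromosome 17, and 12 other annotated genes lie wholly between the outermost of them. Of these, 5 were called higher in apCAFs and none lower, with a median log2 fold change of 0.56. Over all tested genes 3.91% were called higher and the median was -0.04. Tap1, a subunit of the peptide transporter for class I, read 22319, 21959 and 28808 against 9479, 9474 and 8096 (log2 1.43, SE 0.17, adjusted p = 0.0212). The immunoproteasome subunit genes Psmb8 (log2 1.45, adjusted p = 0.0247) and Psmb9 (log2 1.25, adjusted p = 0.0261) and the noncoding gene Gm20496 (log2 1.09, adjusted p = 0.0376), which overlaps Psmb8 and Tap2 in position, also rose; Gm20496 and Brd2 were named after their values were seen. Gm20513, a noncoding gene antisense to the start of H2-Eb1 with no shared exon base, read 25, 12 and 23 in apCAFs and was listed at 0 in nonapCAFs (adjusted p = 0.00966). Brd2, beside H2-DMa, read 33479, 31333 and 30135 against 32749, 31792 and 32341 (adjusted p = 0.898). Leaving out apCAFs 1, apCAFs 2, nonapCAFs 4, nonapCAFs 5 or nonapCAFs 6 reduced the count of calls to 1 each time, and that 1 was Gm20513; without apCAFs 3 the count was 4. Calls over all genes changed too, from 1602 of 36443 to 411, 310, 464, 499 and 810 in those 5 fits and to 1791 without apCAFs 3. Between 35644 and 35948 genes were tested in each.

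**Figure D3:**
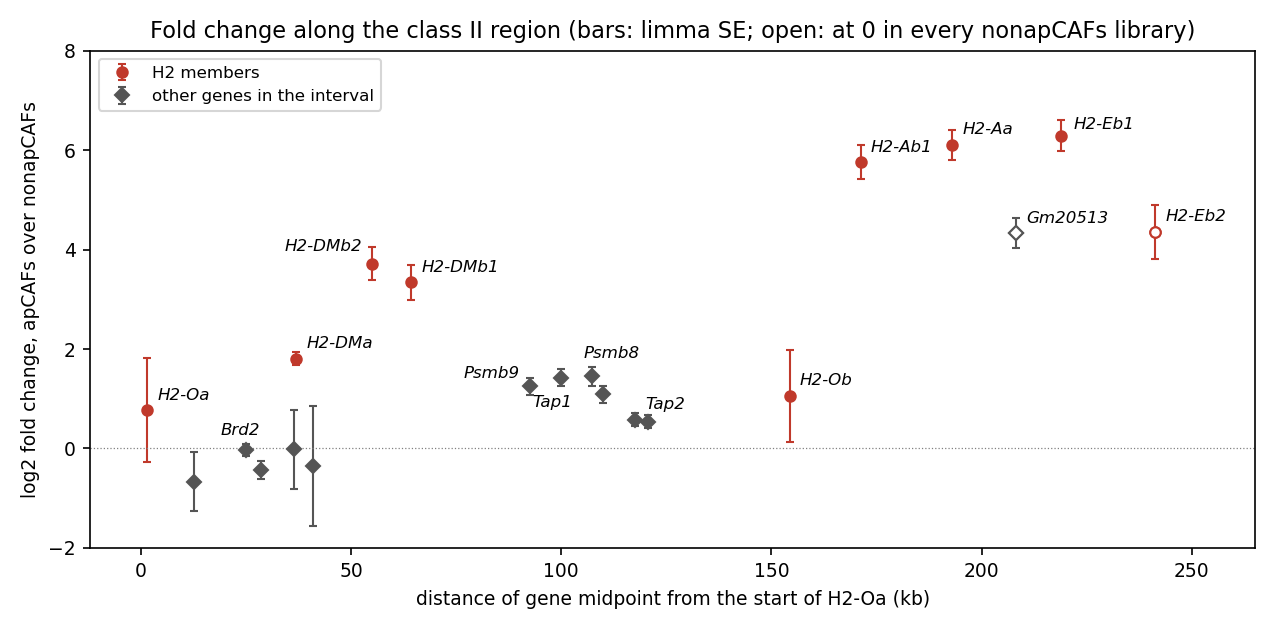
Log2 fold change of apCAFs over nonapCAFs, with limma's SE, against the distance of each gene's midpoint from the start of H2-Oa, for the 9 H2 members (red circles) and the 12 other genes (grey diamonds) of the class II region. H2-Ab1, H2-Aa and H2-Eb1 lie near 6, the H2-DM genes between 1.81 and 3.71 and Tap1, Psmb8 and Psmb9 between 1.25 and 1.45; open symbols are genes at 0 in every nonapCAFs library, whose fitted value depends on the pseudocount.

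Beyond the members, 22 genes of the class II pathway were examined: transcription factors, endosomal proteases, ubiquitin ligases and tetraspanins. Limma tested 21 and called 2 higher and none lower, with a median log2 fold change of 0.15. Over all 36443 tested genes it called 3.91% higher and 0.486% lower, with a median of -0.04. Ciita, the transactivator that the promoter factors recruit, read 2177, 2137 and 3409 in apCAFs against 269, 320 and 178 in nonapCAFs (log2 3.33, SE 0.31, adjusted p = 0.0141). Cd82, a tetraspanin found with class II and H2-M in endosomes, read 6300, 6760 and 8089 against 3795, 3530 and 3872 (log2 0.91, SE 0.16, adjusted p = 0.0427). Ciita did not pass without apCAFs 2 (adjusted p = 0.0525) or nonapCAFs 4 (0.0509), while Cd82 did not pass without any 1 of apCAFs 1, apCAFs 2, nonapCAFs 4, nonapCAFs 5 and nonapCAFs 6 (0.0893 to 0.148), nor with values divided by library totals (0.0776), quantile normalization (0.0531) or no filter (0.0605).

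None of the genes for the RFX and NF-Y subunits passed, and the groups overlapped for each. Rfx5, the DNA-binding RFX subunit, read 3755, 3595 and 3338 against 3424, 3678 and 2613 (adjusted p = 0.622), and the other RFX and NF-Y subunit genes had log2 values between -0.35 and 0.20. Creb1 did not pass either but lay lower in every apCAFs library, at 5435, 5333 and 4652 against 5863, 6395 and 5582 (log2 -0.21, adjusted p = 0.462). The most abundant pathway genes not called were the protease genes Ctsl, with 50994, 54941 and 71132 against 63020, 58823 and 65936, and Ctsb, with 52419, 50692 and 62459 against 54023, 50538 and 45844 (adjusted p = 0.755 and 0.605). Lgmn, an asparaginyl endopeptidase that takes part in trimming the invariant chain, had all apCAFs libraries above all nonapCAFs libraries, at 17937, 19563 and 34990 against 7691, 7481 and 9029, without passing in limma (log2 1.52, adjusted p = 0.0602). March1, a ubiquitin ligase that removes class II from the surface of dendritic and B cells, lay lower in every apCAFs library, at 83, 76 and 88 against 155, 150 and 263 (log2 -1.14, adjusted p = 0.0851). Creb1, Lgmn and March1 were chosen after their values were seen. The authors' deposited table calls Lgmn higher and March1 lower (DESeq2 adjusted p = 8.51e-08 and 0.00327) and does not call Creb1 (DESeq2 adjusted p = 0.159).

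The genes outside the family nearest in pattern over the 6 libraries were sought next. Likeness was measured as the Euclidean distance between centred log2 profiles and the mean profile of H2-Aa, H2-Ab1 and Cd74, among genes that averaged 100 or more and had an established symbol. Mir5107, which lies in Cd74, came first at 0.265, nearer than H2-Eb1 at 0.412. Next were Pcnx2 (0.686), which read 1312, 1274 and 2702 against 24, 27 and 31, Lrrn4 (0.887), a mesothelial marker, the unconventional myosin gene Myo5b (1.01) and the VEGF receptor gene Kdr (1.08). H2-DMb2, H2-DMb1 and H2-DMa stood farther off, at 3.02, 3.43 and 5.29. The group difference fixes most of each distance, so the order is a description.

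Fibroblast genes were abundant in both groups, and leukocyte, macrophage and dendritic cell marker lists each summed below H2-Aa alone in every apCAFs library. In nonapCAFs the macrophage and dendritic cell lists summed above each classical chain. Fibroblast markers summed to 1500772 to 2444532 in apCAFs against 551912 to 608308 among nonapCAFs. Most of this sum was Col1a1 and Col1a2; 3 of 6 were called higher, and Lum lay lower in every apCAFs library, at 11026, 11304 and 8086 against 21256, 19490 and 15611 (adjusted p = 0.0952). The pan-leukocyte gene Ptprc read 24, 22 and 65 in apCAFs, where H2-Aa read at least 11556, and 2, 29 and 34 in nonapCAFs. Leukocyte markers summed to 494 to 824 against 150 to 400, with 1 of 5 called higher, Cd53, at 250, 274 and 395 against 41, 50 and 38 (adjusted p = 0.0119). The dendritic cell gene Flt3 read 31, 44 and 0 against 91, 63 and 117, and the B cell gene Cd79a 15 to 27 against 11 to 26. Macrophage markers summed to 2917 to 4213 against 2276 to 2806, with 0 of 7 called, and Adgre1 read at most 30. Csf1r lay higher in every apCAFs library, at 1316, 1444 and 2478 against 872, 912 and 906 (adjusted p = 0.164). So did Cd68, at 407, 346 and 487 against 228, 212 and 215 (adjusted p = 0.0578). For the rest of the macrophage list the groups overlapped. Of 8 dendritic cell markers, 1 was called higher, Batf3 (adjusted p = 0.0357). Zbtb46 lay higher in every apCAFs library, at 860, 802 and 1782 against 405, 422 and 355 (adjusted p = 0.0963). Ccr7 did too, at 31, 31 and 57 against 17, 26 and 26 (adjusted p = 0.296). Itgax lay lower in every apCAFs library, at 267, 303 and 177 against 526, 556 and 553 (adjusted p = 0.0658), as did Clec9a, at 854, 854 and 260 against 1180, 1112 and 1131 (adjusted p = 0.337). Xcr1 and Cd209a read at most 7 and 2, and the list summed to 2400 to 2975 against 2295 to 2358. The B cell list summed to 161 to 447 against 460 to 576, with 0 of 6 called. Most of this sum was Pax5, at 406, 355 and 130 against 538, 560 and 429. Cd79b (8, 20 and 8 against 0, 2 and 0) and Ms4a1 (2, 7 and 8 against 0, 0 and 1) lay higher in every apCAFs library, at low values. For the rest of the B cell list the groups overlapped. No marker in these 4 lists was at 0 in every library. The part of such cells in the class II values was not tested.

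Mesothelial markers differed between groups in the same direction as the members, and alveolar type II markers were high in 2 apCAFs libraries. Mesothelial markers were called higher in 5 of 5 cases and summed to 29532 to 39467 in apCAFs, with a range of 1431 to 2221 for nonapCAFs; their part in the class II values was not tested. Among apCAFs, Lrrn4, Wt1 and Gpm6a were highest in apCAFs 3. Msln (11837, 10700 and 8928) and Upk3b (5204, 4523 and 4316) were lowest there. Alveolar type II markers summed to 86280, 70830 and 1154 in apCAFs 1, 2 and 3, while nonapCAFs ranged from 1738 to 2277, and Sftpc, the surfactant gene that defines those cells, read 48853, 40491 and 226 in apCAFs; 0 of 6 were called in limma. The type II list had its lowest sum of all 6 libraries in apCAFs 3, but most of that sum was Lamp3, at 800 against 1903, 1884 and 1530 in nonapCAFs. In apCAFs 3, Sftpc lay above every nonapCAFs library (185, 185 and 124) and Sftpd below (8 against 9, 38 and 26). Sftpb, Sftpa1 and Slc34a2 lay within the nonapCAFs range. Cd74, the classical chains, H2-Eb2, H2-DMa and H2-DMb1 were highest in apCAFs 3, whereas H2-DMb2 was highest in apCAFs 2 and H2-Oa and H2-Ob were at 0 in apCAFs 3. Without apCAFs 1 and 2, a fit chosen after the data were seen that takes its spread from nonapCAFs alone, the difference was 6.69 for H2-Aa (adjusted p = 0.00896) and 6.90 for Cd74 (adjusted p = 0.0208), while H2-DMb1 (3.52, adjusted p = 0.0715) and H2-DMb2 (3.73, adjusted p = 0.0596) did not pass. Epithelial markers summed to 8207 to 14047 against 7241 to 10276, with 1 of 5 called (Krt19). Most of this sum was keratin genes, and the groups overlapped for Krt8 and Krt18. Epcam, whose protein the gate excluded, lay higher in every apCAFs library, at 181, 209 and 21 against 13, 3 and 5 (adjusted p = 0.130). So did Cdh1, at 786, 602 and 111 against 33, 36 and 2 (adjusted p = 0.137). Endothelial markers summed to 263 to 486 against 233 to 349, with 0 of 4 called.

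**Figure D4:**
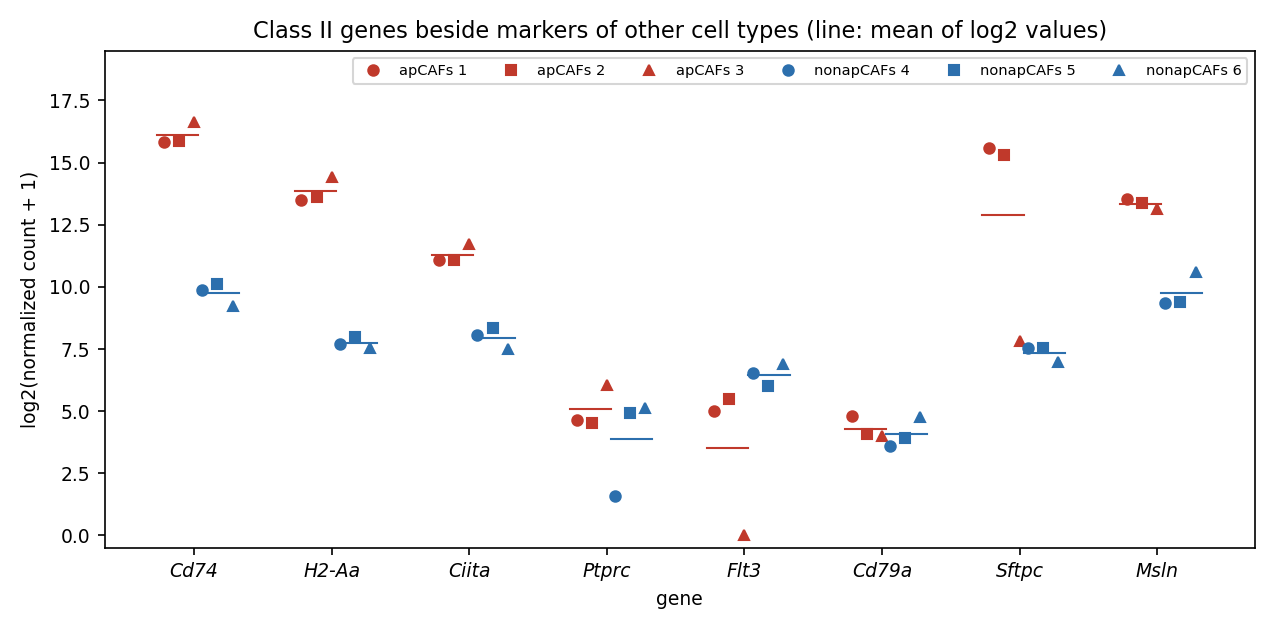
Cd74, H2-Aa and Ciita beside the leukocyte gene Ptprc, the dendritic cell gene Flt3, the B cell gene Cd79a, the type II cell gene Sftpc and the mesothelial gene Msln, as log2(value + 1) per library with a line at each group's mean. Sftpc is high in apCAFs 1 and 2 only, at 48853 and 40491 against 226 in apCAFs 3, whereas Cd74, H2-Aa and Ciita are highest in apCAFs 3.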

How the data were processed

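Per the file headers, the authors normalized gene counts between libraries, and these deposited values, all whole numbers, were taken as a score. They are identical in the library files and the series table. The authors' table also holds a DESeq2 p-value, an adjusted p-value, a ratio of normalized counts and its log2 per gene, per the file headers. Trim Galore, Bowtie2, DESeq2 and mm10 are listed in the submitters' processing notes; for roles, versions, counter and strandedness, nothing is stated in the sources used. Using limma 3.58.1 (R 4.3.3), log2(value + 1) was modelled by group alone, with no variance trend, over the 36443 genes not at 0 throughout, called at an adjusted p under 0.05. Tested on simulated data, this fit recovered the direction of nearly all changed genes there but made more false calls than its threshold allows. How often it makes false calls in the libraries described here was not tested. Exon lengths came from GENCODE M21, in which 55117 of 55298 gene identifiers were found, 99.5% with identical coordinates. Ratios within libraries were compared with exact two-sided permutation tests (scipy 1.17.1). Promoter sequences are RefSeq's (GRCm38.p6).

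The labels list 3 libraries per group; p-values measure the spread between these libraries. Members and gene lists were chosen with earlier results of these data known. Named genes are all members, called genes of the pathway and region lists (up to 4 by p for the region), the 2 most abundant pathway genes not called, the 5 nearest patterns and the defining markers of each list; other genes, among them further markers that were called, were chosen after their values were seen. Alternatives were another pseudocount, filters, scalings, a variance trend, averaged close pairs and each library left out.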

Additional observations from a re-analysis of the deposited data

How the results depend on the processing

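Of 10 members, 8 were called, and 6 to 8 when 1 library was left out; 6 to 8 were called under the other pseudocount, filters, scalings and the variance trend. Over all genes, 1602 of 36443 were called in the main fit and 310 to 1791 of 35644 to 35948 with 1 library left out. Under those other settings 436 to 3453 were called, of 17829 to 55298 tested. With the close pairs averaged, 0 members, 0 pathway genes and 0 region genes were called (8, 4 and 5 at an unadjusted p under 0.05), and the same counts of 0 came with an experiment term, added after the data were seen, under each of the 6 pairings (8, 4 and 7 unadjusted). Both leave fewer degrees of freedom, and both called 0 of all 36443 genes. The authors' DESeq2 table calls 7 of 7 members and 5 higher and 1 lower of 20 pathway genes. The log2 difference of H2-Aa lay between 5.72 and 6.69 over all alternatives, with adjusted p from 4.01e-05 to 0.194; for the faint genes it ranged more widely, from 1.61 to 5.43 for H2-Eb2 and from 1.56 to 4.64 for Gm20513. For pathway genes, 2 were called, and 4 with a pseudocount of 10 (2527 of all 36443 genes). Among genes with a mean of at least 100, 5 were called (2748 of all 17829), and with quantile normalization 2 (1330 of all 36443). In each of these 3 alternatives, 1 of the called pathway genes was lower in apCAFs. Without a filter 1 was called (436 of all 55298), with library totals 1 (1351 of all 36443), and 0 to 3 with 1 library left out. For region genes, 5 were called, and 1 to 4 with 1 library left out. Dividing by library totals moved the median of all genes to -0.18, and quantile normalization to -0.19.

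No direction of the 10 ratios without a zero changed; H2-DMb2 over H2-DMb1 fell to 0.071 (exact permutation p = 0.7) with a pseudocount of 10. H2-Ob over H2-Oa (0.28) turned to -0.035 without apCAFs 1 and -0.84 without nonapCAFs 5 (range -0.84 to 1.24). Without apCAFs 1 and 2, H2-Oa turned to -0.86, H2-Ob to -0.53 and Ctsl to 0.19. Ctsb turned to -0.017 with library totals, -0.050 with quantile normalization and -0.020 without apCAFs 3 and nonapCAFs 6. The cause was not tested. The libraries are numbered 1 to 3 in apCAFs and 4 to 6 in nonapCAFs, with no named experiment, so no single pairing could be chosen and all 6 were fitted, as given above.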
